A study of Mus musculus with 6 samples.

Results

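The semaphorins are guidance ligands, and the plexins and neuropilins are the receptors that read them. Their genes were followed in EpRas cells, mouse mammary EpH4 epithelial cells of BALB/c background that overexpress the Ha-Ras oncogene. Cells taken through a long-term epithelial-mesenchymal transition (EMT) were compared with separate untreated samples. Members were taken by gene symbol from the annotation of the array, as every gene named Sema of classes 3 to 7, Plxn of types a to d, or Nrp 1 or 2. This gave 31 of 18820 genes that have a probe set with 1 gene symbol, of which 20 are semaphorin ligands and 11 are receptors (9 plexins and 2 neuropilins). Control cells were left untreated, and long-term EMT cells received TGF-β1 at 2 ng/ml over 14 days, with 3 samples in each group. Both groups are the same cell line, carry Ha-Ras and grew in the same serum-containing medium. RNA of each sample was hybridized to an Affymetrix MoGene-1_1-st-v1 array of its own, and all values below are log2 values made with the Robust Multi-array Average (RMA).

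Semaphorins were found as cues that steer axons and are now known to act on the movement, adhesion and shape of many cell types, including epithelial and endothelial cells. Class 3 semaphorins are secreted and mostly bind a neuropilin, which passes the signal on through a plexin of type A or D, while the membrane-bound classes 4 to 7 bind plexins directly. Inside the cell the plexin acts on small GTPases, and through them on integrin adhesion and the actin cytoskeleton. Neuropilins also bind vascular endothelial growth factors (VEGF) and have been described as binding TGF-β1.

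A member was said to have risen or fallen at an adjusted p under 0.05 from limma and a fold above 1.5, with adjustment over all 35556 probe sets. The background level, where genes that these cells do not use are taken to lie, was set to 4.48, the 95th percentile of mean values across 1006 probe sets for olfactory receptors. Control replicate 1 stood apart from the other control arrays. It correlated with them at r = 0.987 and 0.984 across probe sets, while control replicates 2 and 3 correlated at 0.995. Among the members it was the highest control array for 21 of 31 genes (67.7%, against 35.3% of all probe sets). In the lists of related genes described below, it was the highest control array for 48.6% to 63.6% of the genes. It lay more than 1 log2 unit above the mean of the other controls for 5 members (16.1%), and so far below it for 0. Of all probe sets 3.81% lay so far away, 777 above and 577 below. Values without this array are given beside the members whose call, sign or size it changed most. The epithelial markers *Cdh1*, *Epcam* and *Cldn7* fell, while *Krt8* and *Krt18* had log2 fold changes of -0.0033 and 0.01. Of 22 measured markers of fibroblasts, endothelial cells, macrophages, lymphocytes and neurons, 0 passed with limma. At a fold above 1.5 and an unadjusted p under 0.05 from limma, 1 was higher and 3 were lower (2.21% and 2.57% of all probe sets). With the methods' t-test 1 was higher and 1 lower (3.73% of all probe sets in either direction). The mean level of the 5 fibroblast markers was 6.97 to 7.77 on control arrays and 6.57 to 6.76 on long-term EMT arrays. These markers went both ways, with log2 fold changes of 0.62 for *Col1a1* and 0.19 for *Col1a2*. The values were -1.76 for *Dcn*, -0.95 for *Pdgfra* and -1.31 for *Pdgfrb*. The mean level of the 6 macrophage markers was 5.76 to 6.24 and 5.71 to 5.96. Those of the endothelial, lymphocyte and neuron markers lay between 4.11 and 4.84 on all arrays. Their part in the results was not tested. In such bulk samples fewer cells that use a gene and less RNA per cell cannot be told apart. The series text speaks of triplicate wells and the array methods of triplicate samples, while a general statement on independent experiments is not tied to the arrays, so a p-value here reflects only the scatter of the 6 samples, which may be technical.

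Of the 20 ligands 1 rose, *Sema7a*, and 1 fell, *Sema3c*, and of the 11 receptors 0 rose and 2 fell, *Nrp1* and *Plxna2*. Over the whole array 0.993% of probe sets rose and 0.928% fell. The median log2 fold change was 0.02 for the ligands and -0.07 for the receptors, against 0.02 over all 18820 genes. With limma 0 receptors also reached a fold above 1.5 upward at an unadjusted p under 0.05, and 0 did with the methods' t-test. That test, at an unadjusted p of at most 0.05 and a fold above 1.5, called 5 of 31 members (3.73% of all probe sets), which are the same 4 genes and *Sema6d*. The long-term EMT arrays lay above all control arrays for 6 ligands and 0 receptors, and below them for 5 ligands and 3 receptors, where this was so for 10.5% and 8.68% of all probe sets. Both group means lay at or below the background level for 4 members, *Sema3d*, *Sema3g*, *Sema5b* and *Plxnc1* (33.3% of all probe sets).

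**Figure D1:**
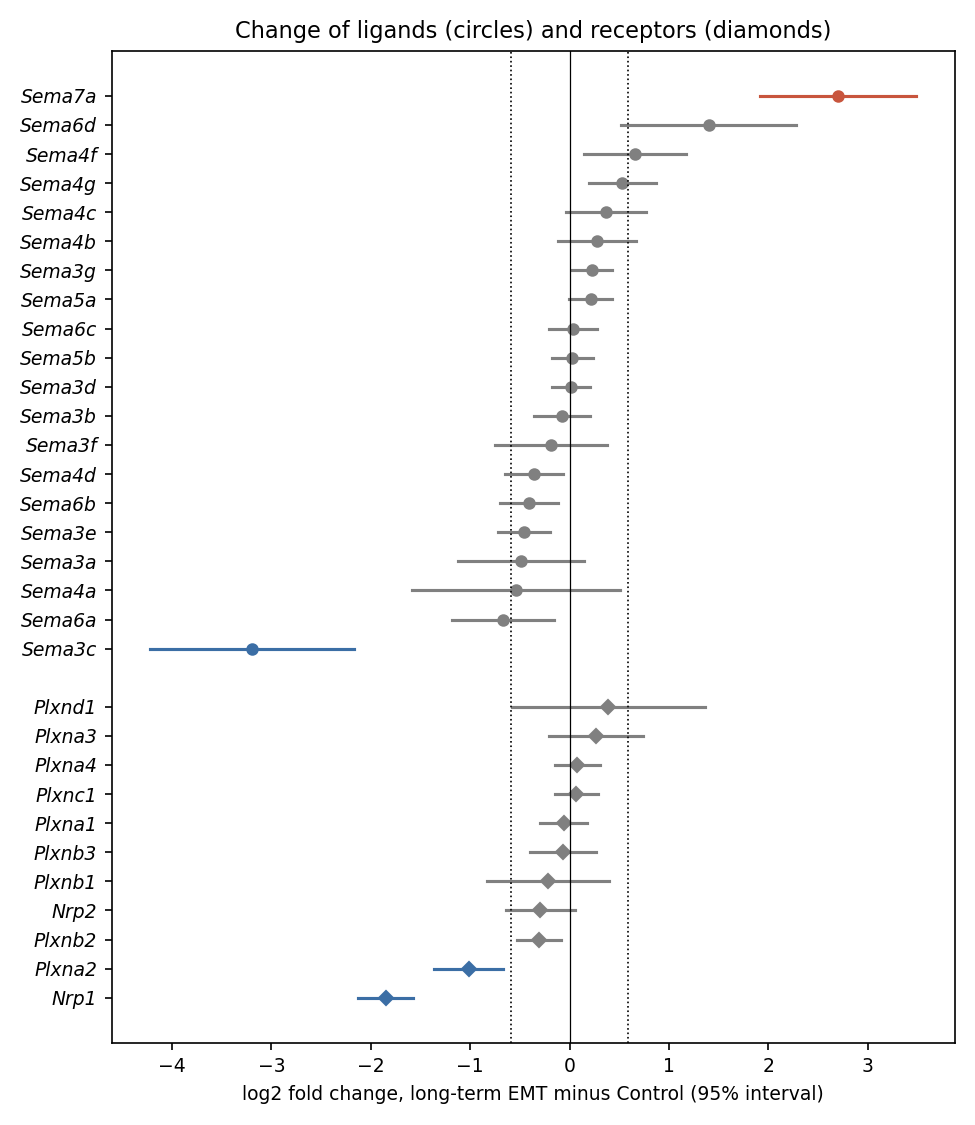
Log2 fold change (long-term EMT minus control, x axis) of the 20 ligands (circles, upper block) and 11 receptors (diamonds, lower block), with 95% intervals from limma, n = 3 per group. Red marks the gene that rose, blue the 3 that fell and grey the 27 that did not pass, and dotted lines mark a fold of 1.5 in either direction. *Sema7a* and *Sema3c* lie farthest from 0 on either side, at 2.70 and -3.20.

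The sequences before a start site of each of the 4 genes that passed are shown because these are where regulators of the genes could act. They are the 250 bases before 1 RefSeq start site of the gene in GRCm38.p6, which need not be its first. Annotated genes start at 57939596 for *Sema7a*, 128358591 for *Nrp1* and 194619791 for *Plxna2*. The windows of *Sema7a* and *Nrp1* thus lie inside the annotated gene, and that of *Plxna2* crosses its start. Sequences run 5′ to 3′ on the plus strand, with capitals for matches to the searched motifs.

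*Sema7a*, chr9:57939862-57940111: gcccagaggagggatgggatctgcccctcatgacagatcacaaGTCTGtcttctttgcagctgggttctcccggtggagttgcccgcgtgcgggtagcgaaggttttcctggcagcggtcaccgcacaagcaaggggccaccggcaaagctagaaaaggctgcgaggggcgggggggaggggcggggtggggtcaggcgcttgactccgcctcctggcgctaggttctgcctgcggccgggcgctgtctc
*Sema3c*, chr5:17574566-17574815: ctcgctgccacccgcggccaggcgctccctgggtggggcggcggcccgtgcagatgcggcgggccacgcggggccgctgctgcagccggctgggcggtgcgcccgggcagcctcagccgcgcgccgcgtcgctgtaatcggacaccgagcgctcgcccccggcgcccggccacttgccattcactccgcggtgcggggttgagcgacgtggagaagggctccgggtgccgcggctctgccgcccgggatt
*Nrp1*, chr8:128358823-128359072: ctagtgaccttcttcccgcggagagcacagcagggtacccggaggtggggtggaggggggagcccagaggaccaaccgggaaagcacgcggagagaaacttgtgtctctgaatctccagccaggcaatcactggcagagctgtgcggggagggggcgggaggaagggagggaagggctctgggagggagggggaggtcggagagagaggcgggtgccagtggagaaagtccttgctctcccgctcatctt
*Plxna2*, chr1:194619579-194619828: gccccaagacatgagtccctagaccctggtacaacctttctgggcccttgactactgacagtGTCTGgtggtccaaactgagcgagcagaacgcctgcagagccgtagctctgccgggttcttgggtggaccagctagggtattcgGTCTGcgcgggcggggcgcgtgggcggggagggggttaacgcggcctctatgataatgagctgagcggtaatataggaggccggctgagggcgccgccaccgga

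The motifs searched on both strands were the Smad palindrome GTCTAGAC, the Smad box CAGAC, the E-box of Zeb and Snail factors CACCTG, the AP-1 site TGANTCA and the Tead site GGAATG, none of which contains another. Smad factors carry the TGF-β signal to the nucleus. The window of *Sema7a* held 1 Smad box, written GTCTG on this strand, 207 to 203 bases before the start site, and that of *Plxna2* held 2. The windows of *Sema3c* and *Nrp1* held no match to any of the 5 motifs. Windows were given for 26 of the 31 members, 37 windows in all. A Smad box was in 19 of these 37 windows and in 42.2% of all 32841 windows, CACCTG was in 5 and in 17.2%, TGANTCA in 3 and in 6.75%, GGAATG in 3 and in 12.6%, and GTCTAGAC in 0 and in 0.167%. The share of G and C was 78.4% in the window of *Sema3c* and between 62.8% and 66.4% in the other 3 windows, with a median of 64.0% over the members' windows and of 52.4% over all windows. A match is a run of letters, and binding was not measured.

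*Sema7a* encodes the class 7 semaphorin, which is held at the outer face of the cell membrane by a lipid anchor. It is known to act through β1 integrins as well as plexin C1. The log2 values of *Sema7a* were 9.21, 7.96 and 8.07 in control replicates 1, 2 and 3, and 11.18, 11.15 and 11.02 in long-term EMT replicates 1, 2 and 3. All long-term EMT arrays were above all control arrays, with a gap of 1.81 between the groups, and the control arrays were spread much more widely (SD 0.69 against 0.09). *Sema7a* was 6.51-fold higher in long-term EMT cells (95% interval of the log2 fold change 1.91 to 3.49, adjusted p = 0.0146 from limma). Control replicate 1 was the control array nearest to the long-term EMT arrays, and without it the log2 fold change was 3.10 (adjusted p = 0.000846 from limma). *Sema7a* passed in 2 of the 6 fits that each left out 1 array, and the adjusted p went up to 0.0858.

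*Sema3c* encodes a secreted class 3 semaphorin that uses both neuropilins and plexin D1. It had log2 values of 10.99, 9.71 and 9.40 in control replicates 1, 2 and 3, and of 6.99, 6.43 and 7.09 in the long-term EMT replicates. The groups were 2.31 log2 units apart at their nearest arrays, and the long-term EMT arrays remained above the background level. The gene was 9.17-fold lower in long-term EMT cells (limma, log2 fold change -3.20 with a 95% interval of -4.22 to -2.17, adjusted p = 0.0204). Here control replicate 1 was the array farthest from long-term EMT, and without it the log2 fold change was -2.72 (adjusted p = 0.00544 from limma). *Sema3c* passed in 2 of the 6 fits that each left out 1 array, and the adjusted p went up to 0.103.

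The other 6 members of class 3 did not pass the test, and their log2 fold changes ran from -0.49 to 0.22. *Sema3a*, the first collapsin of growth cones, was at 10.24, 10.90 and 11.16 on control arrays and at 9.98, 10.56 and 10.29 on long-term EMT arrays, with overlap between the groups (log2 fold change -0.49, 95% interval -1.13 to 0.15, and -0.75 without control replicate 1). *Sema3e*, a ligand that binds plexin D1 without a neuropilin, had lower values on each long-term EMT array (8.74 to 8.97) than on each control array (9.25 to 9.50), but its fold of 1.37 was under the threshold and its adjusted p was 0.116. *Sema3f*, the ligand of neuropilin 2, and *Sema3b* had log2 fold changes of -0.19 and -0.07, and their groups overlapped. Without control replicate 1 these values were 0.07 and 0.03, with the sign turned. *Sema3d* and *Sema3g* were at the background in both groups. The genes *Sema3d*, *Sema3a*, *Sema3e* and *Sema3c* stand in this order on chromosome 5 with 0, 3 and 15 other protein-coding genes between neighbours, and of these 4 *Sema3c* was the one that passed.

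The membrane-bound semaphorins other than *Sema7a* did not pass the test. *Sema6d*, a class 6 ligand of type A plexins, had the largest log2 fold change among these, with log2 values of 7.19, 6.45 and 5.66 on control arrays and of 7.96, 7.90 and 7.64 on long-term EMT arrays. The groups did not overlap, but the control arrays covered a range of about the size of the difference. Its log2 fold change was 1.40 (standard error 0.37, 95% interval 0.52 to 2.28, adjusted p = 0.147 from limma). Without control replicate 1 it passed, at 1.78 (adjusted p = 0.0245). *Sema6a*, which binds plexins A2 and A4, went the other way by value, with control arrays at 7.08, 6.26 and 6.71 and long-term EMT arrays at 6.09, 6.11 and 5.84. The groups were 0.15 apart (log2 fold change -0.67, standard error 0.21, adjusted p = 0.228). *Sema6b* had a log2 fold change of -0.40 and *Sema6c* one of 0.03.

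In class 4, which acts mostly through type B plexins, *Sema4f* had control values of 4.68, 4.42 and 4.54, about the background level, and long-term EMT values of 5.69, 5.01 and 4.92. All 3 of the latter were higher, but they were spread out, and the log2 fold change of 0.66 did not pass (95% interval 0.15 to 1.17, adjusted p = 0.239 from limma). *Sema4g* showed values of 4.94 to 5.26 on control and 5.41 to 5.80 on long-term EMT arrays (log2 fold change 0.53, adjusted p = 0.144). *Sema4d*, the ligand of plexin B1, had a log2 fold change of -0.36, with long-term EMT arrays (8.28 to 8.45) below control arrays (8.60 to 8.95). *Sema4b* and *Sema4c* had log2 fold changes of 0.28 and 0.36, and their groups overlapped through control replicate 1. Without this array the values were 0.44 for *Sema4b* and 0.55 for *Sema4c*, the latter with an adjusted p of 0.0307 from limma but a fold under the threshold. *Sema4a* was above the other arrays in 1 sample, control replicate 1, at 6.18, while the other control arrays (4.48 and 4.65) and the long-term EMT arrays (4.54 to 4.58) were near the background level. Its log2 fold change of -0.54 was -0.0017 without that array. Of class 5, *Sema5a* was at 4.52 to 4.53 on control and 4.60 to 4.86 on long-term EMT arrays, and *Sema5b* was at the background.

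**Figure D2:**
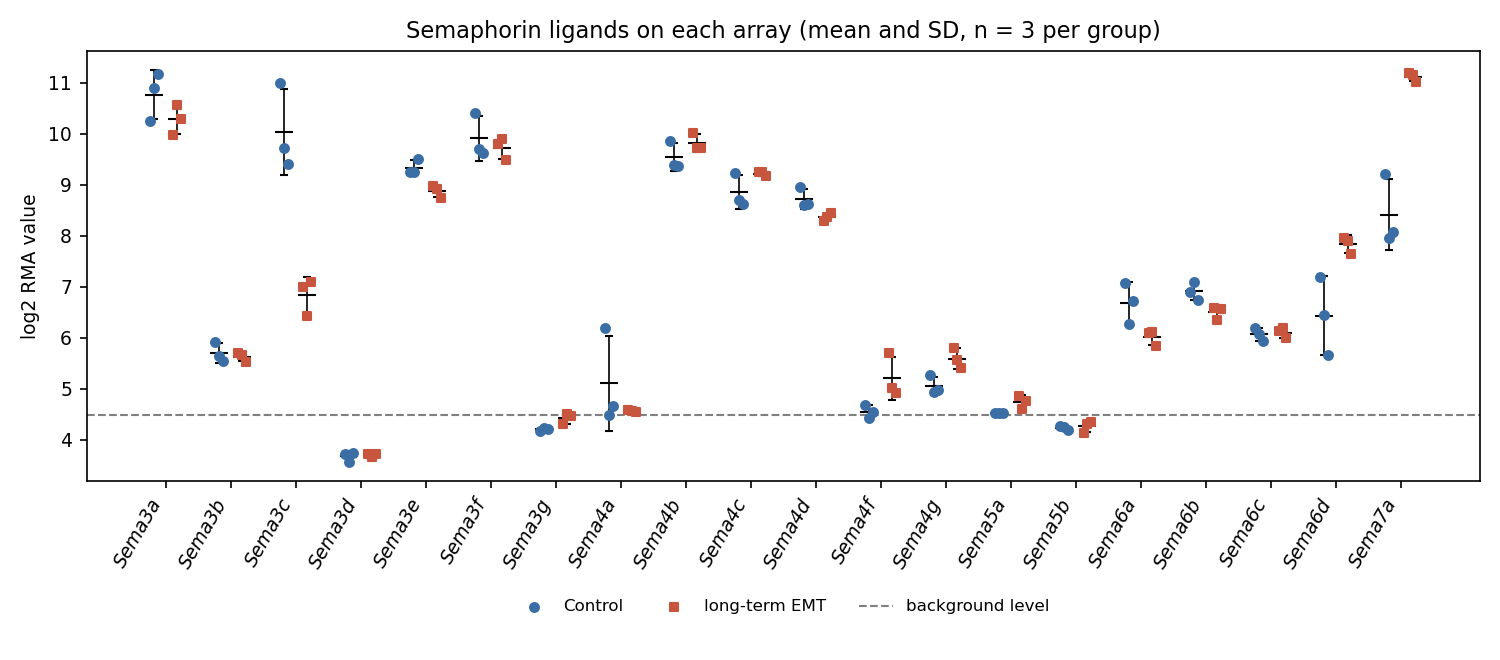
Log2 RMA values (y axis) of the 20 semaphorin genes (x axis) on each control array (blue circles, n = 3) and each long-term EMT array (red squares, n = 3). Black marks are group means and SD, points run from replicate 1 on the left to replicate 3, and a dashed line is drawn at the background, 4.48. *Sema3c* and *Sema7a* show the widest gaps between groups, and the leftmost control point stands high for *Sema4a*, *Sema3c*, *Sema7a* and *Sema6d*.

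Among the receptors, *Nrp1* encodes neuropilin 1, a co-receptor of class 3 semaphorins and of VEGF. Its control arrays were at 8.83, 8.56 and 8.92 and its long-term EMT arrays at 6.83, 6.96 and 6.97. Arrays within each group lay close together (SD 0.19 and 0.08), and the groups were 1.59 apart. *Nrp1* was 3.61-fold lower in long-term EMT cells (log2 fold change -1.85, 95% interval -2.13 to -1.57, adjusted p = 0.00195 from limma), and -1.82 without control replicate 1. The related *Nrp2* had control values of 10.90 to 11.04 and long-term EMT values of 10.41 to 10.94, which overlapped (log2 fold change -0.29, 95% interval -0.64 to 0.05). The intervals of the 2 neuropilins did not overlap, but the difference between them was not tested.

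*Plxna2*, a plexin of type A that binds class 6 semaphorins and joins neuropilins, was at 6.95, 7.28 and 6.93 on control arrays and at 6.25, 6.01 and 5.86 on long-term EMT arrays. Every long-term EMT array was lower than every control array, by at least 0.68. It was 2.02-fold lower in long-term EMT cells (limma, log2 fold change -1.01 with a 95% interval of -1.36 to -0.67, adjusted p = 0.0250). *Plxna2* passed in 1 of the 6 fits that each left out 1 array. The other type A plexins did not pass. *Plxna1* had a log2 fold change of -0.06 (95% interval -0.30 to 0.18) and *Plxna3* one of 0.27 (95% interval -0.21 to 0.74, and 0.46 without control replicate 1), while *Plxna4* was at 4.41 to 4.69 on the 6 arrays, about the background level.

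The type B plexins, receptors of class 4 semaphorins, had log2 fold changes between -0.31 and -0.07 and did not pass. Without control replicate 1 the values of *Plxnb1* and *Plxnb3* were above 0, at 0.09 and 0.06, and that of *Plxnb2* was -0.24. *Plxnb2* had control values of 11.61 to 11.88 and long-term EMT values of 11.42 to 11.44, so that the groups were 0.17 apart (log2 fold change -0.31, adjusted p = 0.198 from limma). *Plxnb1* was at 8.30, 7.43 and 7.33 on control and at 7.53, 7.43 and 7.44 on long-term EMT arrays, and its second probe set had a log2 fold change of 0.14 against -0.22 for the first. *Plxnb3* was near the background level, and *Plxnc1*, the plexin that binds *Sema7a*, was below it, at 4.01 to 4.17 on control and 4.10 to 4.30 on long-term EMT arrays. *Plxnd1*, the receptor of *Sema3e*, was at 8.82, 7.44 and 7.33 on control and 8.52, 8.16 and 8.08 on long-term EMT arrays. Its groups overlapped through control replicate 1 (log2 fold change 0.39, 95% interval -0.58 to 1.36), and without this array the gene passed, at 0.87 (adjusted p = 0.0470).

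**Figure D3:**
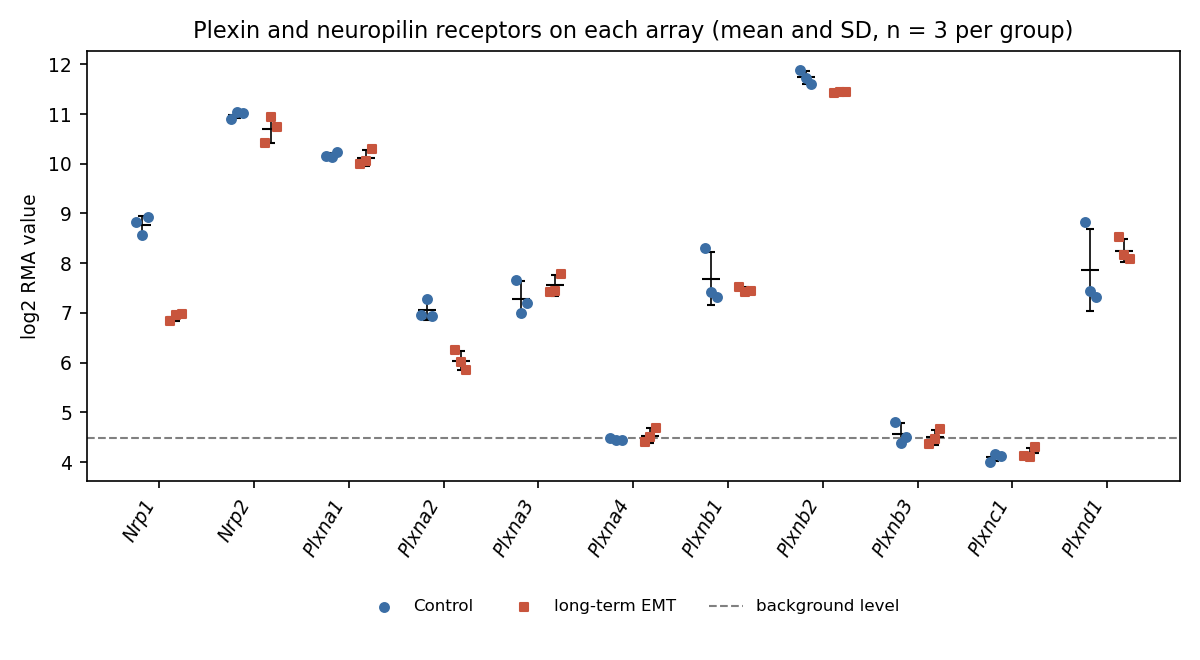
Log2 RMA values (y axis) of the 9 plexin and 2 neuropilin genes (x axis) on each control array (blue circles, n = 3) and each long-term EMT array (red squares, n = 3), with group means and SD in black, and a dashed line at the background level of 4.48. *Nrp1* and *Plxna2* are lower on all long-term EMT arrays, and *Plxna4*, *Plxnb3* and *Plxnc1* lie about the dashed line in both groups.

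Set against known ligand and receptor pairs, *Sema3c* and its co-receptor *Nrp1* both fell, and its other co-receptor *Nrp2* did not pass. *Sema3a*, another ligand of *Nrp1*, had a log2 fold change of -0.49 beside the -1.85 of the receptor. *Sema7a* rose by 2.70 on the log2 scale, while its plexin *Plxnc1* stayed at the background. Of the integrin subunits that *Sema7a* binds, *Itgb1* was at 11.30 to 11.35 on control and 11.73 to 11.90 on long-term EMT arrays. This was a fold of 1.42, under the threshold (log2 fold change 0.507, adjusted p = 0.0330 from limma). With the 2 probe sets of *Itgb1* averaged, the log2 fold change was 0.375 (adjusted p = 0.0422 from limma). *Itga1* was below the background level in both groups. *Sema6a* and its receptor *Plxna2* had log2 fold changes of -0.67 and -1.01, of which that of the receptor passed. *Sema6d* and its receptor *Plxna1* had values of 1.40 and -0.06, and *Sema4d* and *Plxnb1* values of -0.36 and -0.22. The pairs share genes and arrays, and no test was run over them.

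Of 22 measured genes listed as co-receptors or other receptors of semaphorins, 1 rose and 0 fell (0.993% and 0.928% of all probe sets). At a fold above 1.5 and an unadjusted p under 0.05 from limma, 2 were lower (2.57% of all probe sets). With the methods' t-test 1 was lower (688 of 35556 probe sets). The 1 that rose was the receptor tyrosine kinase gene *Ret*, with a log2 fold change of 3.23 (limma, 95% interval 2.69 to 3.77, adjusted p = 0.00274). A tie of *Ret* to semaphorins was not tested here. The median log2 fold change of the 22 genes was 0.03.

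Of 35 measured genes of plexin signaling inside the cell, 2 rose and 1 fell, with a median log2 fold change of 0.05. Over all probe sets 0.993% rose and 0.928% fell. *Mical2*, an enzyme of the family that takes actin filaments apart below plexins, had control values of 8.76, 8.48 and 8.67 and long-term EMT values of 10.11, 10.20 and 10.19, which is 2.89-fold higher (adjusted p = 0.00207 from limma). Its arrays lay close together within each group and 1.35 apart between groups. Its relatives *Mical1* and *Mical3* had log2 fold changes of 0.31 and 0.16 and did not pass. *Fyn*, a Src family kinase that acts downstream of plexins of type A, rose by 0.82 on the log2 scale (adjusted p = 0.0330), and *Rnd3*, which encodes a small GTPase, fell by 1.03 (adjusted p = 0.0260). The collapsin response mediator gene *Dpysl3* had a log2 fold change of 1.78 that did not pass (standard error 0.60, adjusted p = 0.262), and of 2.37 without control replicate 1. Its arrays were spread widely in both groups, over 6.01 to 8.17 in control and 8.17 to 9.53 in long-term EMT cells.

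Of the 5 measured VEGF genes, whose products share neuropilins with the semaphorins, 0 passed with limma, while 3 were higher and 1 lower at a fold above 1.5 and an unadjusted p under 0.05 (2 and 1 with the methods' t-test). Of all probe sets 2.21% were higher and 2.57% lower at that limma threshold. Without control replicate 1, 3 rose (*Pgf*, *Vegfa* and *Vegfc*) and 1 fell (*Vegfd*). Over the whole array 472 probe sets rose and 482 fell in that fit. In the fits that each left out another array, 0 VEGF genes rose and 0 fell. Without control replicate 1 *Pgf* had a log2 fold change of 2.74 (adjusted p = 0.0419 from limma) and *Vegfa* one of 1.24 (adjusted p = 0.00253). With all arrays these values were 2.13 for *Pgf* (adjusted p = 0.194) and 0.97 for *Vegfa* (adjusted p = 0.113), and neither gene's groups overlapped. With dim probe sets left out, with probe sets averaged per gene or with adjustment over probe sets with 1 symbol, 1 rose (*Vegfc*) and 1 fell (*Vegfd*), and with equal array medians 1 fell (*Vegfd*). *Vegfc* was at 8.13, 7.48 and 7.13 on control and 9.03, 8.81 and 8.96 on long-term EMT arrays (log2 fold change 1.35, adjusted p = 0.0542), and *Vegfd* at 6.55, 6.99 and 6.69 and at 5.74, 5.31 and 5.94 (log2 fold change -1.08, adjusted p = 0.0502). The groups did not overlap for *Vegfc* or *Vegfd*. Of 7 proteases that cut semaphorins or their receptors, 1 rose and 1 fell (0.993% and 0.928% of all probe sets), and the other 5 did not pass. *Furin*, a proprotein convertase, rose by 0.70 on the log2 scale (adjusted p = 0.0203 from limma), and the related convertase *Pcsk6* fell by 1.84 (adjusted p = 0.00574).

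Each array was left out in turn. *Nrp1* passed in each of the 6 fits that left out 1 array, with log2 fold changes from -1.96 to -1.78 and adjusted p from 0.00347 to 0.0213. *Sema7a* and *Sema3c* each passed in 2 of these 6 fits, those without control replicate 1 or 3, and *Plxna2* in 1, that without control replicate 1. Over the 6 fits their log2 fold changes lay between 2.48 and 3.10 for *Sema7a*, -3.51 and -2.72 for *Sema3c*, and -1.12 and -0.90 for *Plxna2*, and the adjusted p went up to 0.0858, 0.103 and 0.123. Without control replicate 2, and without each of the long-term EMT replicates, 0 ligands rose and 0 fell. In these 4 fits 107 to 162 probe sets of the whole array rose and 98 to 150 fell, against 353 and 330 with all arrays. Without control replicate 1, 2 ligands and 1 receptor rose, and over the whole array 472 probe sets rose and 482 fell. Of the pathway genes *Ret*, *Mical2* and *Pcsk6* passed in all 6 fits, *Rnd3* in 2, and *Fyn* and *Furin* in 1 each. The standard errors of the members were between 0.08 and 0.43 on the log2 scale. For 11 of the 27 members that did not pass, the 95% interval lay within a fold of 1.5 in both directions. For the other 16 members a change of this size was within the interval. Over the whole array the interval lay within that fold for 25213 of the 34873 probe sets that did not pass, a larger share than among the members.

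**Figure D4:**
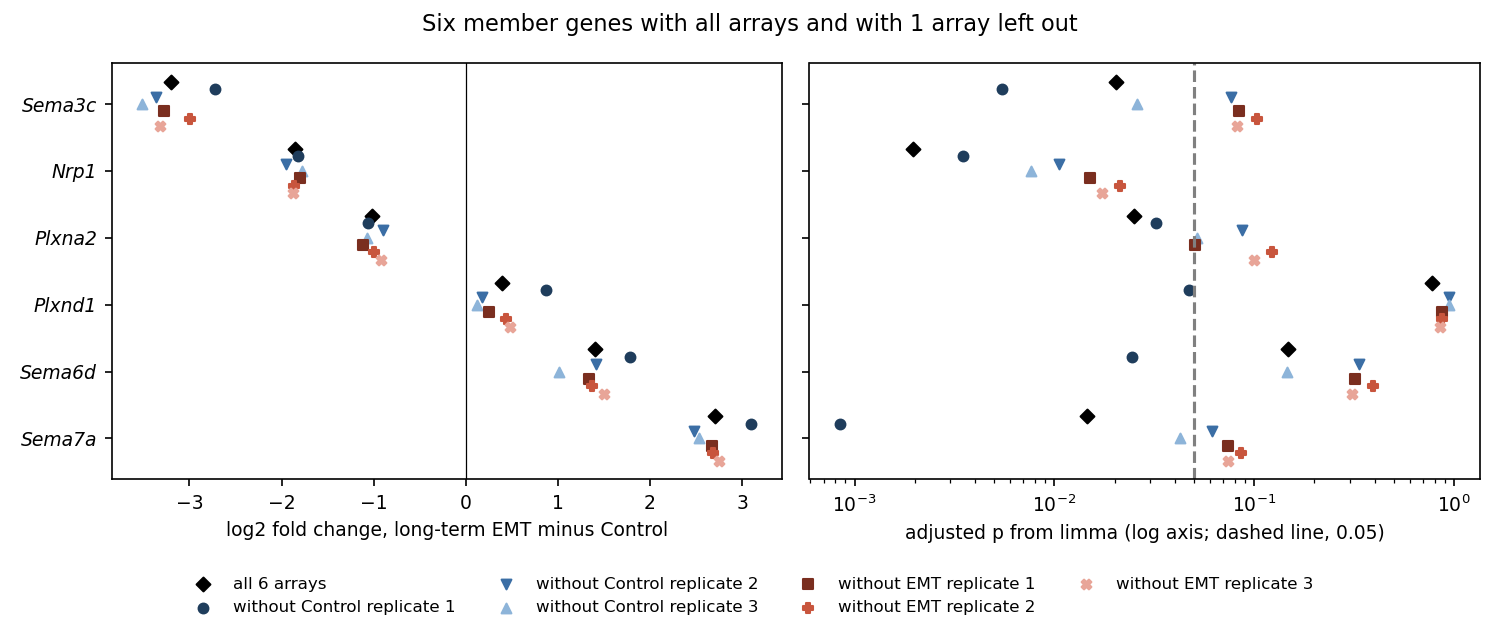
Log2 fold change (left, x axis) and adjusted p from limma (right, logarithmic x axis, dashed line at 0.05) of 6 member genes with all arrays (black diamonds) and with each of the 6 arrays left out in turn (other symbols). *Nrp1* stays left of the dashed line in every fit, *Sema6d* and *Plxnd1* pass it when control replicate 1 is left out, and the log2 fold changes of *Sema7a*, *Sema3c* and *Plxna2* keep their sign while the adjusted p moves across it.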

How the data were processed

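RNA of 6 samples (150 ng each) was hybridized to MoGene-1_1-st-v1 arrays. The authors made the deposited log2 values, given with 2 decimals for 35556 probe sets, by RMA in Affymetrix Expression Console (version not given in the sources used here). RMA includes quantile normalization, so that values show change relative to the other genes of an array. No further normalization was applied. Of the probe sets 21218 have 1 gene symbol and 1881 several, and the latter named no gene, among them 1 shared by *Sema4g* and *Mrpl43*. For each gene, the probe set of highest average over the 6 arrays was used. Among the members *Plxnb1* and *Sema6b* have more than 1 probe set, and the 2 of *Sema6b* hold identical values.

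Groups came from the sample titles and were tested by lmFit and eBayes of limma 3.58.1 under R 4.3.3 (two-sided, Benjamini-Hochberg over all probe sets), after a check on simulated data. The methods' t-test was run on the same log2 values with equal variances. The number of arrays limits the precision. With 3 against 3 arrays an exact permutation test cannot go below p = 0.1, so none was used. All 31 members were described, with values of every array for those that passed or reached a fold of 1.5, and up to 4 passing genes per pathway list. Array values of other members, and *Mical1*, *Mical3*, *Dpysl3*, *Pgf*, *Vegfa*, *Vegfc* and *Vegfd*, were chosen after their values were seen. Members, lists and tests were chosen with earlier results of these data known. Alternatives were a trended and robust variance prior, a replicate block, other normalizations, dim probe sets left out, other readings of a gene, other adjustments and thresholds, the methods' t-test and leaving out each array. Motifs were searched with Python 3.11.15. The build of the array annotation is not given in the sources used here, and coordinates are those of RefSeq windows. Protein sequences were not used here.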

Additional observations from a re-analysis of the deposited data

How the results depend on the processing

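The 4 calls among the members (*Sema7a* higher, *Sema3c*, *Nrp1* and *Plxna2* lower) were the same with a trended and robust variance prior, with the arrays quantile normalized again or set to equal medians, with dim probe sets left out, with all probe sets of a gene averaged, with adjustment over probe sets with 1 symbol and with no fold threshold. With the methods' t-test at an unadjusted p of at most 0.05, 2 ligands rose, the second being *Sema6d*. After Benjamini-Hochberg adjustment of that test 0 ligands rose, 0 fell, and 1 receptor fell (*Nrp1*), while over the whole array 43 probe sets rose and 26 fell. With 1 array left out, the ligands that rose numbered 0 to 2 and those that fell 0 to 1, and the receptors that rose 0 to 1 and those that fell 1 to 2. Each of these fits had fewer arrays, and the cause of the differences was not tested.

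Replicate numbers are shared by the titles of the groups. Deviations of same-numbered arrays from their group means correlated at 0.188, 0.02 and 0.249 across probe sets. Control replicate 2 correlated more with long-term EMT replicate 3 (0.142). Control replicate 1 correlated most with its own number (0.062 and -0.267 with long-term EMT replicates 2 and 3), and so did control replicate 3 (-0.141 and -0.1 with replicates 1 and 2). Whether the numbers mark pairs was not tested, and the main fit did not take them as pairs. With the replicate block, 1 receptor fell instead of 2, since *Plxna2* had an adjusted p of 0.0588. *Furin* (0.0738), *Rnd3* (0.0680) and *Fyn* (0.0558) did not pass either, *Dpysl3* (0.0317) and *Pgf* (0.0204) passed as higher, with no other change of call among the members and pathway genes. Over the array 256 probe sets rose and 278 fell, against 353 and 330 without it. With the 90th or 99th percentile of olfactory receptor means as background level, 2 or 7 members were at or below it in both groups, against 4 with the 95th. Signal close to this level limits what can be said of *Plxna4*, *Plxnb3*, *Plxnc1*, *Sema3d*, *Sema3g*, *Sema4f*, *Sema5a* and *Sema5b*.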
